A study of Mus musculus with 4 samples.

Results

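Sst, Npy, Vip, Penk and Avp encode the precursors of 5 neuropeptides: somatostatin, neuropeptide Y, vasoactive intestinal peptide, the enkephalins and arginine vasopressin. They were chosen by symbol, and each had 1 row among the 5282 genes of the deposited table. RNA came from corpus callosum and cortex, dissected together, of mice at postnatal day 15. The mutant group, called SmoM2 here, held 2 samples of Pdgfra-creER;SmoM2 mice, and the wild type (WT) group held 2 samples. Mice of both groups had been injected with tamoxifen from postnatal day 5 to 7. The SmoM2 allele encodes an always active Smoothened, which relays the hedgehog signal across the membrane. Pdgfra-creER is a recombinase that tamoxifen switches on in cells using the Pdgfra promoter, chiefly oligodendrocyte precursors and some fibroblasts. The labels do not say whether the WT mice carried either allele, or whether each sample was 1 animal. A p-value here therefore measures the spread between these samples, which may be technical.

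A neuropeptide is cut out of a longer precursor protein by proprotein convertases, trimmed and often amidated, stored in dense-core vesicles and released to act on G protein-coupled receptors. In cerebral cortex, Sst, Npy and Vip are known as genes of GABAergic interneurons, with Sst and Vip marking largely separate classes. Penk is used by some cortical interneurons and, at high level, by striatal projection neurons of the indirect pathway. Avp is known from the hypothalamus, above all from its paraventricular, supraoptic and suprachiasmatic nuclei. In bulk RNA, fewer cells of a type and less RNA per cell cannot be told apart.

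The table gives each sample an expression level that, by its values, was scaled for gene length and sequencing depth. The unit may be TPM or FPKM and is not stated, and read depth is unknown because no counts were used here. The table lists genes that the authors selected at an unadjusted p of at most 0.05, so that each precursor gene had already passed that selection. "Rose" and "fell" are kept below for genes whose adjusted p was 0.05 or less in the authors' deposited table. Of all listed genes, 37.3% were called in this way, 21.3% as higher and 16% as lower in SmoM2, and in 84.7% the SmoM2 samples did not overlap with the WT samples. Genes of cortex and white matter were present in all 4 samples. Neurod6, of cortical excitatory neurons, was at 82.12 and 83.12 in SmoM2 and at 115.46 and 113.03 in WT. Mbp, the myelin basic protein gene, was at 1956 and 2249 in SmoM2 and at 4001 and 3526 in WT. Markers of adjoining regions differed between samples of the same group. The 9 listed choroid plexus genes summed to levels of 153 and 727.8 in SmoM2 replicates 1 and 2 and of 1370 and 1405 in WT replicates 1 and 2. Ttr alone was at 71.24 and 618.04 in SmoM2 and at 1203 and 1162 in WT. In SmoM2 replicate 1 most of the rest was Enpp2, at 75.24, and whether Enpp2 came from choroid plexus alone was not tested. The 13 listed olfactory bulb genes summed to 226 and 144 in SmoM2 and to 123 and 121 in WT, and the sums of striatal and hypothalamic genes are given beside Penk and Avp.

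In the GENCODE M21 annotation of GRCm38, all 5 are protein-coding genes. Sst (ENSMUSG00000004366) has 2 exons on the minus strand of chromosome 16, from 23889573 to 23890958. Npy (ENSMUSG00000029819) has 4 exons on the plus strand of chromosome 6, from 49822710 to 49829507. Vip (ENSMUSG00000019772) has 7 exons on the plus strand of chromosome 10, from 5639218 to 5647617. Avp (ENSMUSG00000037727) has 3 exons on the minus strand of chromosome 2, from 130580620 to 130582554. Penk (ENSMUSG00000045573), on the minus strand of chromosome 4 from 4133531 to 4138819, has coding transcripts of 2 and 3 exons and overlaps A830012C17Rik on the other strand. The sources used here do not say whether reads were counted by strand, so reads of Penk and of that gene might be mixed. The other 4 overlap no annotated gene.

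The promoters are shown because Sst, Vip and Penk are textbook targets of the cAMP response element (CRE) and its factor CREB, and Avp of the E-box that clock factors bind. RefSeq promoter windows of build GRCm38.p6, from 250 bases before to 50 after the RefSeq start site, matched 4 of the 5 genes by symbol. Penk was not matched. The 150 bases before the start, and for Sst 30 bases around the match, are printed 5′ to 3′ on the gene's strand, with matches in capitals. Searched were the full CRE (TGACGTCA), its shorter form TGACGT, which the full CRE contains, and the E-box CACGTG, each on both strands.
Sst, chr16:23890874-23890903, minus strand: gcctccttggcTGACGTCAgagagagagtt
Vip, chr10:5639068-5639217, plus strand: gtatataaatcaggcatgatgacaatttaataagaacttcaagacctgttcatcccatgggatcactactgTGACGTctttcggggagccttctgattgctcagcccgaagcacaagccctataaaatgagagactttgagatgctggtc
Npy, chr6:49822560-49822709, plus strand: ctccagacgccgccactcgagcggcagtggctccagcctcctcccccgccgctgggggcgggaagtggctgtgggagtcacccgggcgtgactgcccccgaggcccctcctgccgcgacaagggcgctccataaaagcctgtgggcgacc
Avp, chr2:130582589-130582738, minus strand: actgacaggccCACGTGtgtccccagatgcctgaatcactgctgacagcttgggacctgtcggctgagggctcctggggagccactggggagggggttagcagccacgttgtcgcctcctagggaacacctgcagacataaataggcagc
The full CRE of Sst lay at positions -48 to -41 from the RefSeq start site. The GENCODE gene of Sst starts further upstream, at 23890958, so that this CRE lies inside it and 114 of the 150 bases before the RefSeq start do too. Positions are counted from the RefSeq start in all 4 genes, and the shorter form in Vip lay at -79 to -74. The E-box of Avp lay at -139 to -134. Of all 32851 windows, 1.79% held the full CRE, 7.51% the shorter form and 7.15% the E-box. Among the 5057 windows of listed genes the shares were 3.12%, 10.4% and 9.10%. None of the 8 other listed neuropeptide precursor genes, all with a window, held either form of the CRE, and Cck held the E-box. The 2 CRE-bearing genes differed in direction, as Sst rose and Vip fell.

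All 5 precursor genes were called in the authors' deposited table, beside 37.3% of all listed genes: Sst, Penk and Avp rose, and Npy and Vip fell. Their share is not a test, because these genes were chosen with results of this table known. Their mean levels over the 4 samples span the table, from Sst at rank 94 and Npy at rank 187 through Penk at 528 and Vip at 1703 to Avp at 3949 of 5282. By the size of the authors' log2 fold change the order was Avp at rank 136, Vip at 1209, Penk at 2430, Npy at 2905 and Sst at 3751. The median absolute log2 fold change of called genes was 0.53, so that Sst, Npy and Penk moved less than the typical called gene and Vip and Avp moved more. In Sst, Npy, Vip and Avp the groups did not overlap, as in 84.7% of all listed genes, whereas in Penk they did. A fit of log2(level + 1) in limma called 6 genes, 0.124% of the 4845 of mean level 1 or more, none of them a precursor gene. Its adjusted p was taken over the 57010 tests that the authors' values imply, and 2687 genes, 55.5%, had an unadjusted p of at most 0.05. The exact permutation test of 2 samples against 2 cannot go below a p of 0.333, which it gave for Sst, Npy, Vip and Avp; for Penk it gave 0.667 (two-sided).

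**Figure D1:**
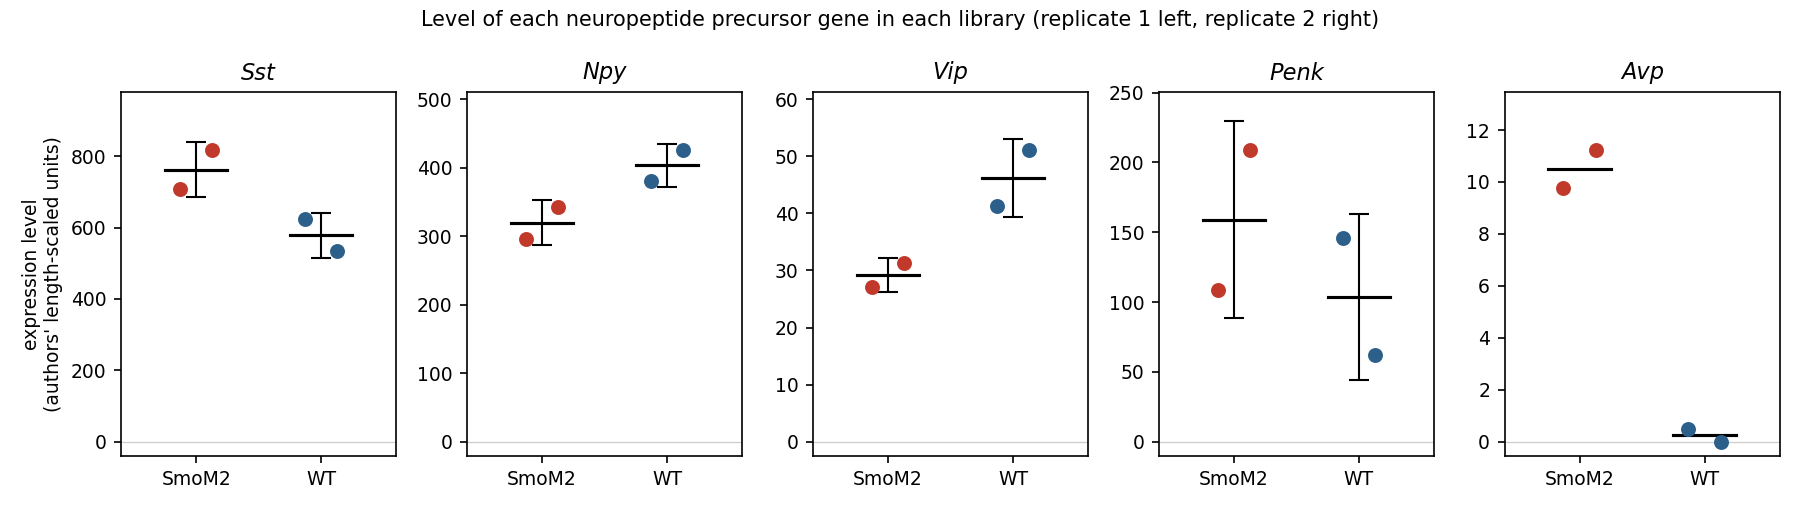
Expression level of each neuropeptide precursor gene in each sample (linear axis, the authors' length-scaled units); points are samples, black lines group means and bars the SD over 2 samples, with no bar for Avp. In Penk the 2 groups overlap, and in Avp the SmoM2 samples sit at 9.76 and 11.22 above WT samples at 0.49 and 0.

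**Figure D2:**
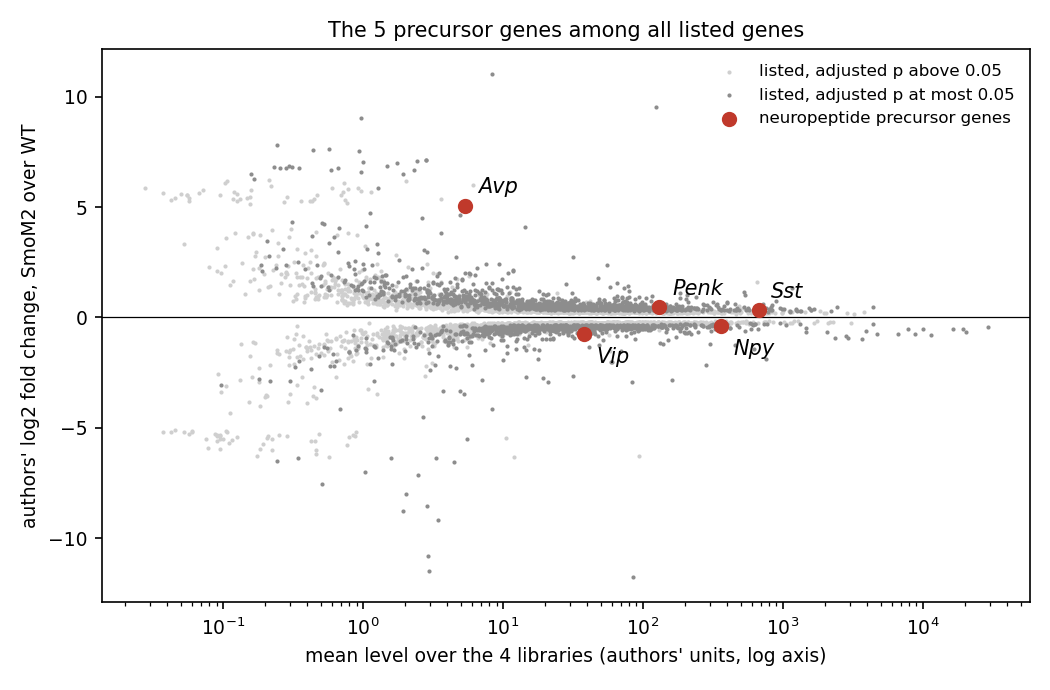
Mean level over the 4 samples (log axis) against the authors' log2 fold change, SmoM2 over WT, for all 5282 listed genes, with the 5 precursor genes in red. Avp, at a log2 fold change of 5.07, lies far above the other 4, which run from -0.73 for Vip to 0.46 for Penk.

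Sst, whose product inhibits neurons and hormone-secreting cells, rose modestly. Its level was 708.63 and 816.36 in SmoM2 and 622.61 and 533.9 in WT. Both SmoM2 samples were above both WT samples. Group means were 762 ± 76.2 in SmoM2 and 578 ± 62.7 in WT (SD over n = 2 samples a group), and the log2 difference was 0.40 ± 0.12 (SE, limma, unadjusted p = 0.0157, adjusted p = 0.569). The authors' deposited table gives Sst a smaller log2 fold change, 0.33, with an adjusted p of 0.0450, close to the threshold. With quantile normalization the limma difference was 0.18, and the median difference of all fitted genes was 0.12 there against 0.25 without it.

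Npy, a peptide of interneurons that dampens excitatory transmission, fell. Its level was 296.21 and 342.76 in SmoM2 and 381.22 and 425.49 in WT, without overlap. The group means were 319 ± 32.9 in SmoM2 and 403 ± 31.3 in WT (SD over n = 2 samples a group), and the log2 difference was -0.34 ± 0.11 (SE, limma, unadjusted p = 0.0222, adjusted p = 0.682). The log2 fold change in the authors' deposited table was -0.40, at an adjusted p of 0.0112.

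Vip, which marks interneurons that mainly inhibit other interneurons, fell further. Its level was 27.13 and 31.29 in SmoM2 and 41.36 and 51.05 in WT. The group means were 29.2 ± 2.94 in SmoM2 and 46.2 ± 6.85 in WT (SD over n = 2 samples a group), and the log2 difference was -0.64 ± 0.14 (SE, limma, unadjusted p = 0.00388, adjusted p = 0.365). In the authors' deposited table the log2 fold change was -0.73 and the adjusted p 2.54e-06.

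Within a sample, the 3 interneuron peptides stood in nearly fixed proportions in SmoM2 and in other proportions in WT. These ratios were chosen after the values were seen and have no test. The level of Sst was 26.1 times that of Vip in each SmoM2 sample, against 15.1 and 10.5 times in the WT samples. Sst stood at 2.39 and 2.38 times the level of Npy in SmoM2 and at 1.63 and 1.25 times in WT. Npy stood at 10.9 and 11.0 times the level of Vip in SmoM2 and at 9.22 and 8.33 times in WT. None of these ratios overlapped between groups. For Sst over Npy and Sst over Vip this follows from the levels, which moved in opposite directions without overlap. Slc32a1, the vesicular GABA transporter shared by inhibitory neurons, rose more than Sst did, by 0.71 on the log2 scale in the authors' deposited table. Relative to it, Sst was at 8.68 and 8.12 in SmoM2 and at 11.7 and 10.3 in WT, so that the ratio was lower in SmoM2 although the level of Sst was higher. The ratio of Vip to Slc32a1 was 0.332 and 0.311 in SmoM2 and 0.775 and 0.983 in WT. This gap too follows from levels that moved in opposite directions without overlap. Which inhibitory neurons Slc32a1 came from was not tested, so that ratios to it are not levels per cortical interneuron.

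The listed genes with the profile most like that of each peptide over the 4 samples, by Euclidean distance between centred log2(level + 1) values among 4008 genes of mean level 5 or more, were not interneuron markers. They were Pex16 and Bak1 for Sst, at distances of 0.0146 and 0.0216. For Npy they were Lgi1 and 1700019D03Rik at 0.0222 and 0.0331, and for Vip Zfp874a and Orc2 at 0.0789 and 0.0844. With 4 samples many genes have a similar profile.

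Of 13 genes listed for inhibitory neurons, 8 had a row, 4 rose, beside 21.3% of all listed genes, and none fell. Not all of them are shared by every class, as Adarb2 also stands in the list of Vip interneurons. The median of the authors' deposited log2 fold changes was 0.50 against 0.23 over all listed genes. Medians of other lists below are from the same column of the authors' deposited table. Sp9, a transcription factor gene of developing interneurons, was at 6.24 and 4.56 in SmoM2 and at 2.13 in both WT samples. Slc32a1 was at 81.67 and 100.53 in SmoM2 and at 53.37 and 51.92 in WT. Dlx1 rose too, but its limma difference of 0.63 was 0.25 without SmoM2 replicate 1, the sample with the highest olfactory bulb sum, and 1.02 without SmoM2 replicate 2. Gad1 and Gad2, which define these cells, had no row and were not analysed here. The same holds for Lhx6, which also stands in the list of Sst interneurons.

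Listed genes of Sst interneurons were higher in SmoM2, as Sst was. The list of 15 had 6 with a row, of which 5 rose, beside 21.3% of all listed genes. Their median was 0.61, against 0.23 over all listed genes. Nr2f2, a transcription factor gene, was at 16.27 and 20.06 in SmoM2 and at 7.26 and 6.26 in WT. Elfn1, a postsynaptic organiser of inputs onto Sst cells, was at 24.23 and 31.40 in SmoM2 and at 18.77 and 14.65 in WT. Nos1, the neuronal nitric oxide synthase gene, was at 7 and 6.88 in SmoM2 and at 4.16 and 4.64 in WT. Reln and Grin3a also rose. Nr2f2, Nos1 and Reln stand in other interneuron lists as well, and the more selective Chodl, Crhbp and Cort had no row. Whether the values of this list came from Sst interneurons was not tested.

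The list of Vip interneurons split. Of 18 genes, 8 had a row, 2 rose and 2 fell, at a median of 0.39. Prox1, a transcription factor gene of these cells, fell with Vip, at 3.16 and 3.75 in SmoM2 and 5.73 and 5.42 in WT. Cnr1, the cannabinoid receptor gene, fell as well, at 33.05 and 31.42 in SmoM2 and 37.82 and 41.60 in WT. Calb2, the calretinin gene found in many Vip cells and in other neurons, rose, at 122.72 and 107.63 in SmoM2 and 70.04 and 52.54 in WT, as did Nr2f2. The level of Vip was 0.221 and 0.291 times that of Calb2 in SmoM2 and 0.591 and 0.972 times in WT. This gap follows from levels that moved in opposite directions without overlap.

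Genes of neurogliaform cells, a further source of Npy, also split: 7 of 10 had a row, 3 rose and 2 fell, at a median of 0.39. Lamp5, which marks these cells among interneurons, fell with Npy. It was at 101.23 and 137.38 in SmoM2 and at 151.58 and 195.86 in WT. In each sample this was above the level of Slc32a1, and whether Lamp5 came from these cells alone was not tested. The limma difference of Lamp5, -0.54, was -0.32 without SmoM2 replicate 1 and -0.36 without WT replicate 2. The ratio of Npy to Lamp5 overlapped between groups, at 2.93 and 2.49 in SmoM2 and 2.51 and 2.17 in WT. Id2 fell, with a limma difference of -0.86 that was -0.49 without SmoM2 replicate 2, and Nos1, Reln and Sv2c rose. Of 11 genes of Pvalb interneurons, 3 had a row and all 3 fell, beside 16% of all listed genes, at a median of -0.48. Pvalb, the parvalbumin gene, was at 12.44 and 19.57 in SmoM2 and at 29.40 and 29.02 in WT, and its limma difference of -0.86 was -0.55 without SmoM2 replicate 1. Kcnc2, a potassium channel gene of fast-spiking cells, fell with a difference of -0.35 that was -0.23 without WT replicate 2. The groups of Mef2c overlapped.

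Penk rose in the authors' deposited table, but its 4 samples did not separate by group. Its level was 108.91 and 208.73 in SmoM2 replicates 1 and 2 and 145.86 and 61.87 in WT replicates 1 and 2. SmoM2 replicate 2 was highest and WT replicate 2 lowest, and WT replicate 1 lay above SmoM2 replicate 1. The highest sample was 3.37 times the lowest, and the SD within each group exceeded the difference between the means, with means of 159 ± 70.6 in SmoM2 and 104 ± 59.4 in WT (SD over n = 2 samples a group). The authors' deposited table has a log2 fold change of 0.46 (adjusted p = 0.00180), whereas limma gave 0.66 ± 0.45 (SE, unadjusted p = 0.192, adjusted p = 1). The limma difference was 1.13 without SmoM2 replicate 1, 0.19 without SmoM2 replicate 2, 1.27 without WT replicate 1 and 0.05 without WT replicate 2.

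The 2 genes with the profile most like that of Penk among the 4008 searched were Syndig1l and Adora2a, at distances of 0.287 and 0.398. Both stand in the list of striatal projection neurons. Adora2a, an adenosine receptor gene of indirect-pathway neurons, was at 17.98 and 51.62 in SmoM2 and at 28.09 and 12.92 in WT. Syndig1l was at 11.78 and 27.81 in SmoM2 and at 16.79 and 5.54 in WT. Beside Penk the list of 18 had 5 genes with a row, at a median log2 fold change of 0.59. Of these, 4 rose, against 21.3% of all listed genes, and none fell. Adora2a, Syndig1l and Gng7, 3 of the 5, had the same order of samples as Penk. Adora2a and Syndig1l had been found by their likeness to Penk, so that their order is no separate result. That order was held by 31 of the other 5239 listed symbols, 0.592%. Any order that mixes the groups is uncommon in this selected table, where 84.7% of genes had no overlap between groups. Gpr6, an orphan receptor gene of indirect-pathway neurons, and Adcy5, the main striatal adenylyl cyclase gene, were also highest in SmoM2 replicate 2. They were lowest in WT replicate 2, with SmoM2 replicate 1 second. This order of Gpr6 and Adcy5 keeps the groups apart, as in 84.7% of all listed genes, and Sst had it too. Gpr6 was at 14.44 and 19.25 in SmoM2 and at 12.79 and 7.38 in WT, and Adcy5 at 47.67 and 58.68 in SmoM2 and at 40.83 and 31.31 in WT. The limma difference of Gpr6, 0.72, was 1.08 without WT replicate 1 and 0.36 without WT replicate 2, and that of Adcy5, 0.55, was 0.37 without WT replicate 2. Those of Adora2a and Syndig1l ran from -0.08 to 1.39 and from 0.11 to 1.55 with 1 sample left out. Summed without Penk, the 5 genes came to levels of 265 and 401 in SmoM2 and 306 and 191 in WT. Most of each sum was Gng7, which was not called, at 173 and 244.13 in SmoM2 and 207.21 and 133.78 in WT. The ratio of Penk to Adora2a was 6.06 and 4.04 in SmoM2 and 5.19 and 4.79 in WT, a ratio of genes chosen for their like profiles. Drd1, Drd2, Ppp1r1b and Rgs9, which define striatal projection neurons, had no row and were not analysed here. The part of striatal tissue in the values of Penk was not tested.

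**Figure D3:**
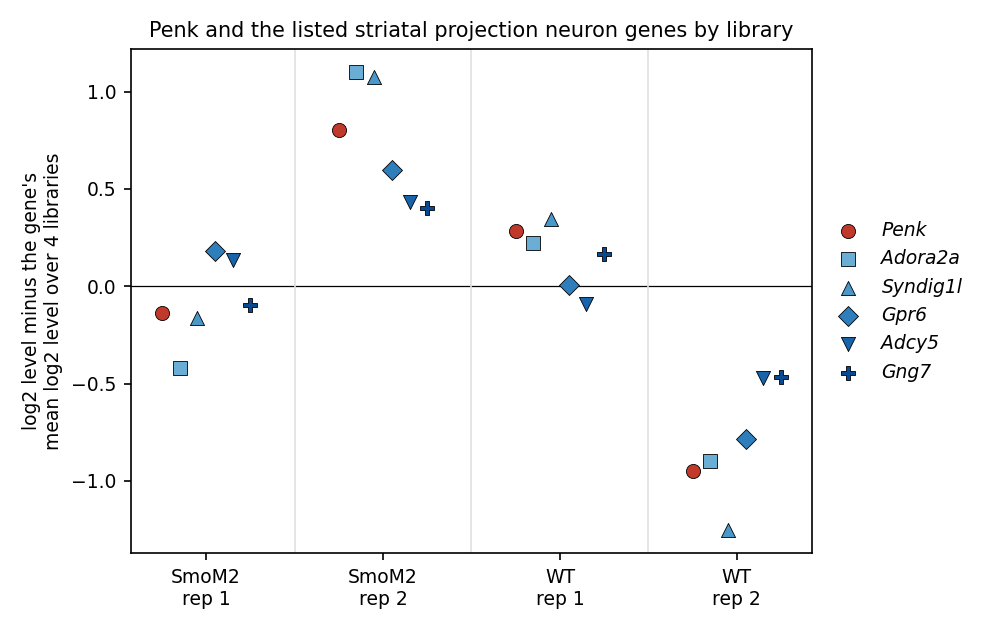
Log2 level of Penk and of the 5 other listed striatal projection neuron genes in each sample, minus the mean log2 level of that gene over the 4 samples; each symbol is 1 gene. All 6 genes are highest in SmoM2 replicate 2 and lowest in WT replicate 2, as Sst was. Penk, Adora2a, Syndig1l and Gng7 are higher in WT replicate 1 than in SmoM2 replicate 1.

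Avp showed the largest difference of the 5 genes. Its level was 9.76 and 11.22 in SmoM2, against 0.49 in WT replicate 1 and a listed value of 0 in WT replicate 2. Both SmoM2 samples lay far above both WT samples. The authors' deposited table gives a 33.5-fold higher value in SmoM2, 5.07 on the log2 scale (adjusted p = 1.66e-09). Because WT was at or near 0, the size of the difference depended on the pseudocount. The limma difference of 3.23 ± 0.26 on the log2(level + 1) scale (SE, unadjusted p = 1.58e-05, adjusted p = 0.0712) was 5.44 with a pseudocount of 0.1 and 1.56 with one of 5. With a sample left out it ran from 2.94 to 3.52. In SmoM2 Avp still had the lowest level of the 5 precursor genes.

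Genes of hypothalamic neurons were higher in SmoM2 beside Avp. The hypothalamic list held 22 genes, 7 of them with a row. The groups did not overlap in any of the 7, but the same was true of 84.7% of all listed genes. A rise was called in 5, beside 21.3% of all listed genes. Their median log2 fold change over the 7 was 1.21, against 0.23 over all listed genes. Baiap3, a gene of dense-core vesicle release, was at 15.75 and 19.22 in SmoM2 and at 4.59 and 3.60 in WT. Hap1, the huntingtin-associated protein gene abundant in hypothalamus, was at 99.03 and 127.62 in SmoM2 and at 49.36 and 42.37 in WT. Otp, a transcription factor gene needed for Avp neurons, was at 0.33 and 0.59 in SmoM2 and listed at 0 in both WT samples. Peg10 was at 6.40 and 8.07 in SmoM2 and at 4.36 and 4.39 in WT. Magel2 was at 1.54 and 2.98 in SmoM2 and at 1.21 and 1.02 in WT, and its limma difference of 0.59 was 0.91 without SmoM2 replicate 1 and 0.27 without SmoM2 replicate 2. Trh, the thyrotropin-releasing hormone precursor gene, was at 7.04 and 6.97 in SmoM2 and at 4.33 and 4.03 in WT without passing (adjusted p = 0.239, authors' deposited table). Fezf1 did not pass either. The summed level of the 7 was 130 and 166 in SmoM2 and 63.9 and 55.4 in WT, most of it from Hap1. Several of these genes are also used outside the hypothalamus. Oxt, Hcrt, Pmch, Agrp, Pomc and Sim1, which define hypothalamic neurons, had no row and were not analysed here, and the part of hypothalamic tissue in the values of Avp was not tested. The profile most like that of Avp was that of Gm55594, at a distance of 0.237. This gene model was at 49.11 and 65.48 in SmoM2 and at 7.69 and 4.15 in WT. Next was Gm52994 at 0.680, with 8.04 and 14.61 in SmoM2 and a listed 0 in both WT samples.

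**Figure D4:**
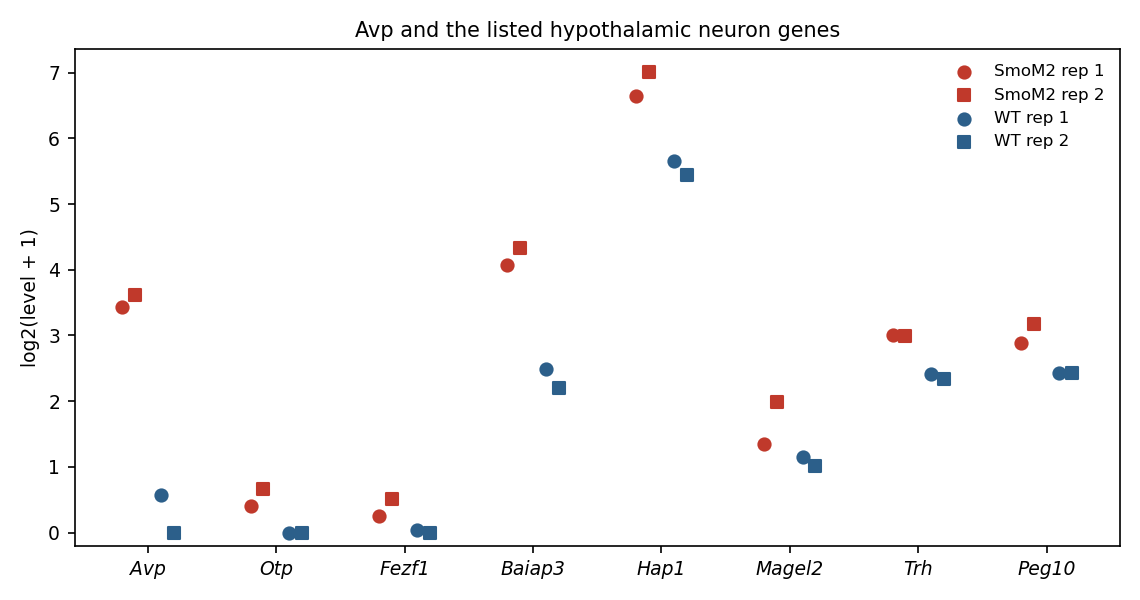
Log2(level + 1) of Avp and of the 7 listed hypothalamic neuron genes in each sample; red marks SmoM2, blue WT, circles replicate 1 and squares replicate 2. Both SmoM2 samples lie above both WT samples in each of these genes, with the widest gap in Avp.

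Other neuropeptide precursor genes seldom had a row. Of 51 in the list, 8 did, and Nts and Nppa rose while none fell, at a median of 0.80. Nts, the neurotensin gene, was at 20.93 and 21.82 in SmoM2 and at 17.62 and 8.46 in WT, and its limma difference of 0.75 was 1.24 without WT replicate 1 and 0.26 without WT replicate 2. Nppa, the atrial natriuretic peptide gene, was at 4.89 and 1.5 in SmoM2 and at 0.70 and 0.99 in WT, with a difference of 1.06 that was 0.44 without SmoM2 replicate 1 and 1.68 without SmoM2 replicate 2. Cck, the cholecystokinin gene and the most highly expressed of the 8, was at 1134 and 1061 in SmoM2 and at 1218 and 1247 in WT without passing (adjusted p = 0.235, authors' deposited table). Calca, Nmb, Nucb2 and Ucn3 did not pass either. Tac1, Pdyn, Crh, Cort, Grp and Pnoc, further peptide genes of forebrain neurons, had no row and were not analysed here.

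Genes that process precursors and build dense-core vesicles moved both ways. Of 26, 13 had a row, 4 rose and 4 fell, at a median of -0.21. Their summed level was nearly the same in every sample, from 4478 to 4526. The largest part of each sum was Cpe, which was lower in SmoM2 without passing, while Pcsk1n was higher. The sum thus hides opposite moves of single genes. The 2 convertases that cut neuropeptide precursors in vesicles fell. Pcsk1 was at 11.22 and 11.95 in SmoM2 and at 15.67 and 17.07 in WT, or -0.58 on the log2 scale in the authors' deposited table (adjusted p = 9.16e-05). Pcsk2 was at 113.02 and 139.27 in SmoM2 and at 150.99 and 156.46 in WT, and its limma difference of -0.29 was -0.14 without SmoM2 replicate 1. Pcsk1n, which encodes proSAAS, an inhibitor of Pcsk1, rose. It was at 532.35 and 474.74 in SmoM2 and at 300.82 and 283.95 in WT, or 0.71 on the log2 scale in the authors' deposited table (adjusted p = 1.20e-11). Furin, the convertase of the constitutive secretory pathway, rose as well, at 21.36 and 21.62 in SmoM2 and 13.74 and 14.94 in WT.

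Granins, the acidic proteins that pack the vesicle core, split. Chga was at 237.59 and 259.99 in SmoM2 and at 171.36 and 199.76 in WT, and Vgf at 257.68 and 290.37 in SmoM2 and at 186.42 and 193.64 in WT; both rose. Scg3 fell, at 263.38 and 263.61 in SmoM2 and 328.52 and 339.61 in WT. Chgb fell too, at 275.53 and 305.58 in SmoM2 and 323.88 and 353.92 in WT, with a limma difference of -0.22 that was -0.15 without SmoM2 replicate 1. Cpe, the carboxypeptidase that trims the cut peptides, had the highest level of the list, 2143 and 2031 in SmoM2 and 2314 and 2270 in WT, without passing (adjusted p = 0.109, authors' deposited table). Scg5, the chaperone gene of Pcsk2, did not pass (adjusted p = 0.116, authors' deposited table), nor did Syt4, Ptprn2 and Syt10.

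Among 20 receptor genes of the 5 peptides and their close relatives, 7 had a row, 1 rose and 6 did not pass. All 7 were higher in SmoM2, at a median log2 fold change of 0.50, beside 53.2% of all listed genes that were higher. That 1 was Oxtr, the oxytocin receptor gene, whose product also binds vasopressin, at 9.07 and 7.91 in SmoM2 and 6.14 and 5.26 in WT (adjusted p = 0.00230 in the authors' deposited table). The somatostatin receptor gene Sstr1 was at 36.11 and 35.34 in SmoM2 and at 25.81 and 28.65 in WT without passing. The authors' deposited table has an adjusted p of 0.220 for Sstr1, 0.397 for Sstr2 and 0.256 for Sstr4. Oprk1, a kappa opioid receptor gene, was at 3.4 and 2.57 in SmoM2 and at 1.66 and 1.65 in WT (adjusted p = 0.115, authors' deposited table). The vasopressin receptor gene Avpr1a had a low level, 0.67 and 1.14 in SmoM2 and 0.16 and 0.51 in WT (adjusted p = 0.151, authors' deposited table). Adcyap1r1, whose product binds PACAP, a relative of VIP, did not pass (adjusted p = 0.103, authors' deposited table). Genes of neuropeptide Y receptors, Vipr1, Vipr2, Oprd1 and Oprm1 had no row and were not analysed here.

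**Figure D5:**
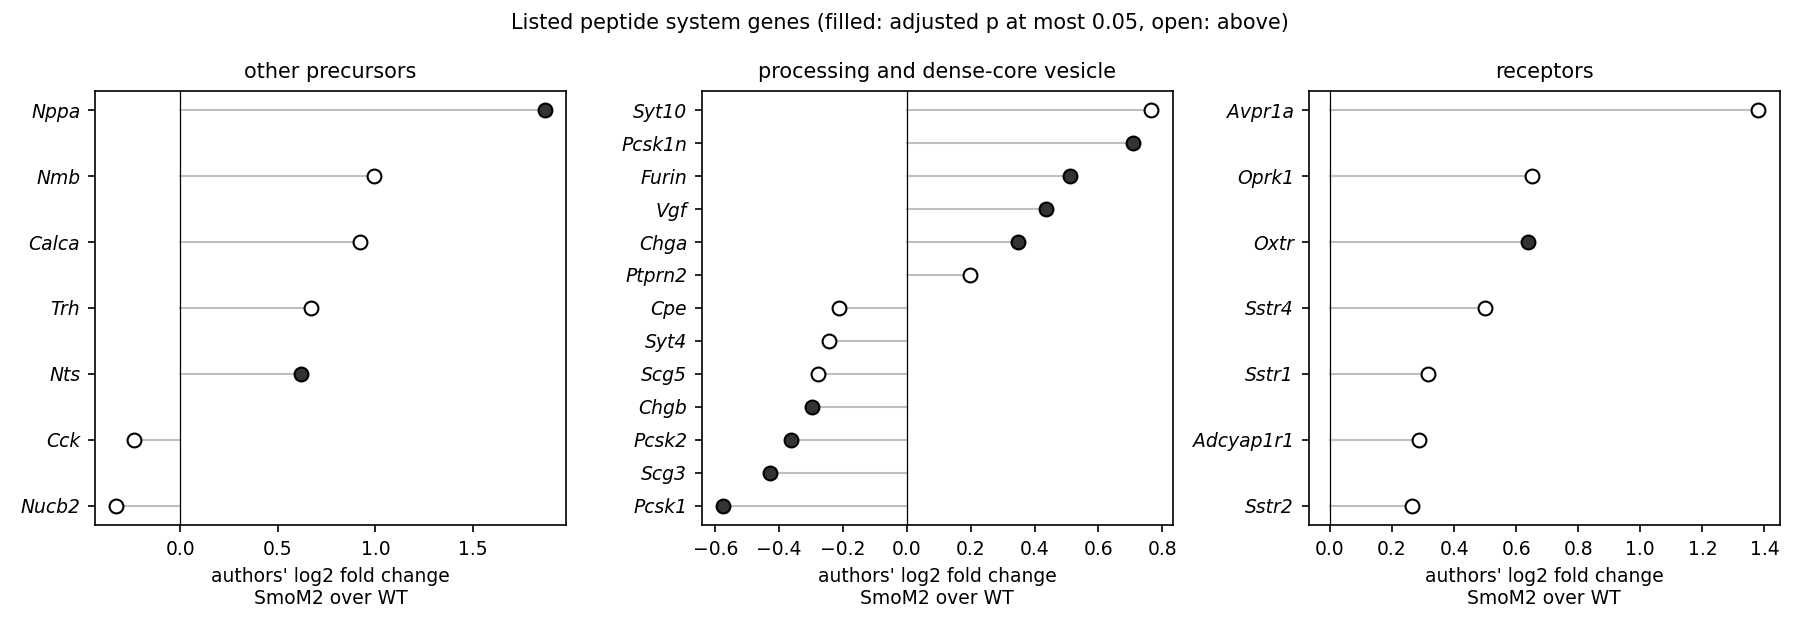
Log2 fold change in the authors' deposited table, SmoM2 over WT, for listed neuropeptide precursor genes other than the 5 (left, without Ucn3, which was listed at 0 in WT), genes of precursor processing and dense-core vesicles (middle) and receptor genes (right); filled circles passed an adjusted p of 0.05 and open circles did not. The 7 receptor genes are all to the right of 0, and the processing genes lie on both sides, from Pcsk1 at -0.58 to Syt10 at 0.77.

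Of 14 peptidase genes whose products degrade peptides, 5 had a row, 2 rose and 1 fell, at a median of 0.36. Thop1 was at 41.22 and 44.51 in SmoM2 and at 30.54 and 33.05 in WT, and Ece2 at 9.98 and 10.66 in SmoM2 and at 8.08 and 6.78 in WT. Lnpep, which encodes an aminopeptidase that cleaves vasopressin and oxytocin, fell although its limma difference of -0.37 was -0.14 without WT replicate 2, -0.23 without SmoM2 replicate 2 and -0.59 without WT replicate 1. Of 30 genes of the cAMP and CREB pathway and its targets, 14 had a row, 4 rose and 2 fell, at a median of -0.26. Crtc1, a CREB coactivator gene abundant in neurons, was at 57.47 and 58.07 in SmoM2 and at 43.08 and 43.50 in WT. Sik1, a kinase gene that CREB induces, was at 6.25 and 6.40 in SmoM2 and at 3.77 and 3.68 in WT. Nr4a2 and Vgf were the other rises, and the limma difference of Nr4a2, 0.87, was 0.57 without WT replicate 2. Egr1 fell, at 86.58 and 89.71 in SmoM2 and 107.10 and 122.86 in WT, as did Pcsk1. Creb1 itself overlapped between groups without passing (adjusted p = 0.399, authors' deposited table).

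The other regional and cell type lists give the setting of these values. Olfactory bulb genes had 13 of 16 members with a row, at a median of 0.96. Of these, 9 rose, beside 21.3% of all listed genes, and 1 fell. The groups did not overlap in 9 of the 13, beside 84.7% of all listed genes. Among the rises, Th, Tbx21, Eomes and Sp8 overlapped between groups, each highest in SmoM2 replicate 1. Doc2g, a gene of bulb projection neurons, was at 21.44 and 3.93 in SmoM2 and at 2.44 and 2.55 in WT, with a limma difference of 1.59 that was 0.50 without SmoM2 replicate 1 and 2.68 without SmoM2 replicate 2. SmoM2 replicate 1 had the higher bulb sum of the SmoM2 samples and the lower levels of Sst, Npy, Vip, Penk and Avp. Choroid plexus genes had 9 of 10 members with a row, at a median of -1.49. Of these, 7 fell, beside 16% of all listed genes, and none rose. Cortical excitatory neuron genes had 6 of 14 with a row, of which Cux2 rose and Neurod6 fell, at a median of 0.25, and astrocyte genes had 6 of 11, of which 2 rose and 2 fell, at a median of -0.29. The part of these regions and cell types in the values of the 5 precursor genes was not tested.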

How the data were processed

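The labels give 2 SmoM2 and 2 WT samples, and the series text ties each column to its sample. For each gene the authors' deposited table gives an expression signal per sample (a level, TPM or FPKM not stated), the ratio of SmoM2 to WT, the log2 of that ratio, and a p-value before and after adjustment. RSEM, DESeq2 and GRCm38.p6 are named without role or version, per the submitters' processing notes. The table holds selected genes only, so that a fit on it cannot stand for all genes.

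From the levels, group means and SD were computed, and log2(level + 1) was fitted with limma 3.58.1 (R 4.3.3), allowing for a mean-variance trend, in the 4845 genes whose mean level was 1 or more. Benjamini-Hochberg adjustment used 57010 tests. The design was written for levels or counts, and the branch for levels was used. The steps were tested on simulated data. Exact permutation tests used SciPy 1.17.1.

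The 5 genes and the 16 gene lists were chosen with earlier results of these data known. Named were the 5 genes, up to 4 called members of each list without overlap between groups, ranked by log2 fold change, and the 2 nearest profiles of each gene; other genes were chosen after their values were seen. A gene that the rule selects is not reported here. Of the listed identifiers, 5226 were found in GENCODE M21 and 56 were not. Alternatives were pseudocounts of 0.1 and 5, no filter, a minimum mean level of 5, quantile normalization, equal medians, a replicate block and leaving out each sample.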

Additional observations from a re-analysis of the deposited data

How the results depend on the processing

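The log2 differences of Sst, Npy, Vip, Penk and Avp kept their sign in all 55 recalculations, 11 for each gene. The lowest adjusted p among Sst, Npy, Vip and Penk was 0.289 (limma), and with a sample left out few genes of the whole table could pass, so that the lack of calls says nothing of stability. With a sample left out they ran from 0.29 to 0.51 for Sst, -0.44 to -0.23 for Npy, -0.79 to -0.49 for Vip, 0.05 to 1.27 for Penk and 2.94 to 3.52 for Avp, where a lone sample is assumed to vary like the others. Quantile normalization moved the median of all genes by -0.13 and equal medians by -0.10. Relative to that median, Sst was at 0.15 as reported, 0.06 with quantile normalization and 0.14 with equal medians, and Vip at -0.89, -0.85 and -0.90. Relative to the median of each fit, Penk was at 0.41 as reported, but at -0.19 without WT replicate 2 and 0.00030 without SmoM2 replicate 2, and Sst was at 0.05 without WT replicate 2. The number of genes called by limma was 6. It was 0 without a filter, with equal medians and with quantile normalization, where 2811, 2759 and 2768 genes had an unadjusted p of at most 0.05. Without any 1 sample it ran from 0 to 2. With the replicate number as a block it was 20, and Avp then passed, with a difference of 3.23 at an adjusted p of 0.0447. The numbers are not known to pair samples: across 4845 genes, the differences between replicates 1 and 2 of SmoM2 and of WT had a Pearson correlation of -0.0934. DESeq2 was not run, since no counts were used here. Read depth, which sets the precision of low levels such as those of Avp in WT, is unknown.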
